A study of Danio rerio with 5 samples.

Results

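The collagen genes of whole zebrafish larvae were described in libraries labelled WT and libraries labelled Mutant. Genes were taken by their symbol in the deposited table, where 52 of 21854 rows carried a symbol that begins with col, a number, the letter a and a further number. Of these, 2 rows were col4a3bpa and col4a3bpb, which encode a ceramide transfer protein and no collagen, so 50 collagen genes remained. The larvae were 2 weeks old, and each library held RNA of a pool of 10 larvae. The libraries labelled WT were from zbtb24 wild-type larvae, and those labelled Mutant from larvae homozygous for zbtb24mk22, a deletion made with TAL effector nucleases. The AB strain was the wild-type background, and the sources name no agent given to either group. ZBTB24 is a zinc finger protein mutated in ICF syndrome, a disorder of immunodeficiency, centromere instability and facial anomalies. The libraries labelled WT numbered 2, called WT column 2 and WT column 3 after their headings in the table, and those labelled Mutant numbered 3. The series text speaks of 3 pools for every genotype.

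Collagens are secreted proteins whose chains wind into a triple helix. Fibrillar collagens build the fibrils of skin, bone, tendon and cartilage, other collagens sit on the surface of these fibrils, and type IV collagen forms the network of basement membranes, the thin sheets on which epithelia rest. In young zebrafish, type I collagen is made by skin cells, fibroblasts and bone-forming cells, and type II collagen by cartilage and the sheath of the notochord. Procollagen chains are hydroxylated and folded in the endoplasmic reticulum, cut outside the cell and cross-linked by lysyl oxidases.

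Assigned reads numbered from 23796792 to 28601962 per library. The scaled count used below is the number of reads of a gene divided by the size factor of its library. Transcripts of zbtb24 were at 127 and 77.3 with the WT label against 155, 175 and 282 with the Mutant label. The targeted gene was therefore not lower where the label says Mutant (log2 fold change 0.98, SE 0.28, adjusted p = 0.0642), and every direction below is between libraries as labelled. Where in the gene these reads lay, inside or outside the deleted part, was not analysed here. By qRT-PCR, the paper reports zbtb24 transcripts as undetectable in homozygous larvae of the same age. Other genes, chosen after their values were seen, differed too. Scaled counts of cdca7a, another gene of ICF syndrome, were 299.6 and 563 against 255, 199 and 40.4, those of the interferon response gene irf7 204 and 188 against 322, 418 and 327, and those of stat1b 84.4 and 91.0 against 154, 231 and 244. In limma, irf7 and stat1b were higher (adjusted p = 0.0215 and 0.0205), and cdca7a had an adjusted p of 0.127. The related gene cdca7b went the other way, at 260 and 335 against 400, 375 and 437. Its log2 fold change was 0.45 (adjusted p = 0.0885 in limma). The paper reports that cdca7, which it does not split into these genes, was almost lost in older zbtb24 mutants. The label of tissue reads Fin, while the description of the series names whole larvae. All 6 markers of lens and retina, all 5 of liver and all 6 of exocrine pancreas were present in every library, at no less than 1367, 5755 and 25300 scaled counts for any marker, so the libraries held RNA of organs other than fin.

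Collagen transcripts took a larger share of the libraries labelled Mutant. Summed over the 50 genes, they made up 0.776% (column 2) and 1.07% (column 3) of all scaled counts with the WT label, against 1.36%, 1.16% and 1.14% with the Mutant label. The means were 0.924% ± 0.209 (SD, n = 2) and 1.22% ± 0.125 (SD, n = 3). All libraries labelled Mutant lay above both labelled WT, but the library of column 3 was closer to Mutant replicates 2 and 3 than to the other library labelled WT. In RNA of whole larvae, more cells of a type and more RNA per cell cannot be told apart.

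**Figure D1:**
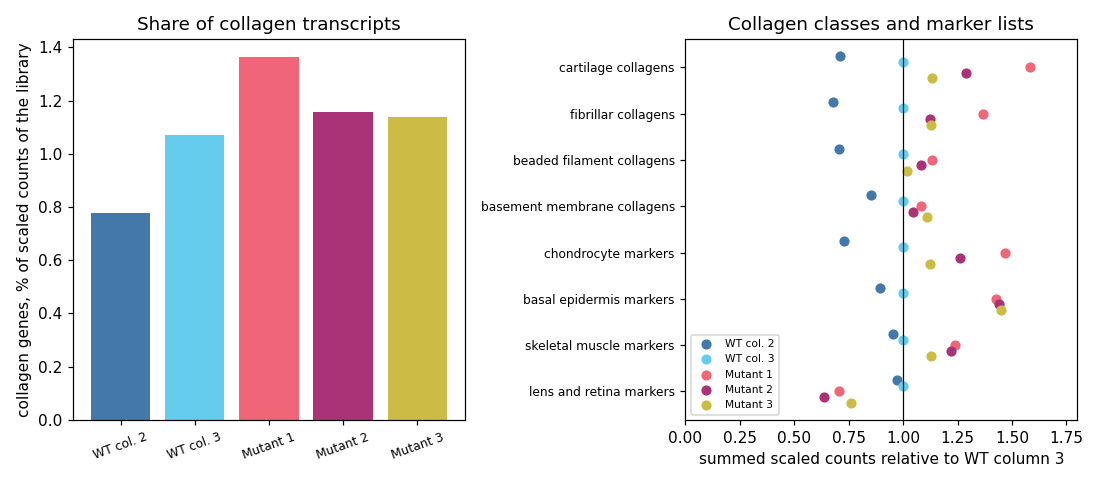
Left, bars give the percentage of all scaled counts of each library that fell on the 50 collagen genes, from 0.776% in WT column 2 to 1.36% in Mutant replicate 1. Right, points give the summed scaled counts of collagen classes and of marker lists in each library divided by those in WT column 3 (line at 1). Among the 8 sets plotted, the cartilage collagens lie farthest to the right, in Mutant replicate 1, and the lens and retina markers lie to the left in all 3 libraries labelled Mutant. The cartilage and fibrillar sets share the genes of types II, XI and XXVII.

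Across the 50 genes, most fold changes were positive and all were less than 2-fold. All 50 passed the limit on low values, with mean scaled counts from 26.3 to 52532. A positive log2 fold change was measured for 45 genes and a negative one for 5, with a median of 0.40 against 0.00 over the 20307 genes in the fit. By limma, 9 collagen genes with an adjusted p under 0.05 were higher in the libraries labelled Mutant, which is 18% of them, against 3.32% of all genes tested. None of them reached a 2-fold change, while 0.704% of all genes passed the same threshold with a rise of at least 2-fold. No collagen gene was lower at an adjusted p under 0.05, as 2.68% of all genes were. At an unadjusted p under 0.05, 1 collagen gene was lower, against 13.6% of all genes. The 9 genes were col4a4, col17a1a, col9a3, col7a1, col9a2, col4a3, col9a1a, col2a1a and col11a1a, and their fold changes lay between 1.39 and 1.87.

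The number of calls rested on few libraries. Leaving out WT column 2, 0 of the 50 passed in limma, 9 had an unadjusted p under 0.05, and the median log2 fold change was 0.17, while 31 genes of the whole table (0.153%) were higher. Leaving out WT column 3, 25 collagen genes were higher, among them 8 of the 9, and so were 6.49% of all genes. Without Mutant replicate 1 or replicate 2 a single collagen gene, col4a4, passed in each case. Of all genes, 1.18% and 0.236% were then higher. Quantile normalization gave 5 higher collagen genes, with 2.93% of all genes higher, and columns rescaled to equal totals gave 6, with 2.37%. The share of all genes at an unadjusted p under 0.05 was not computed with a library left out.

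**Figure D2:**
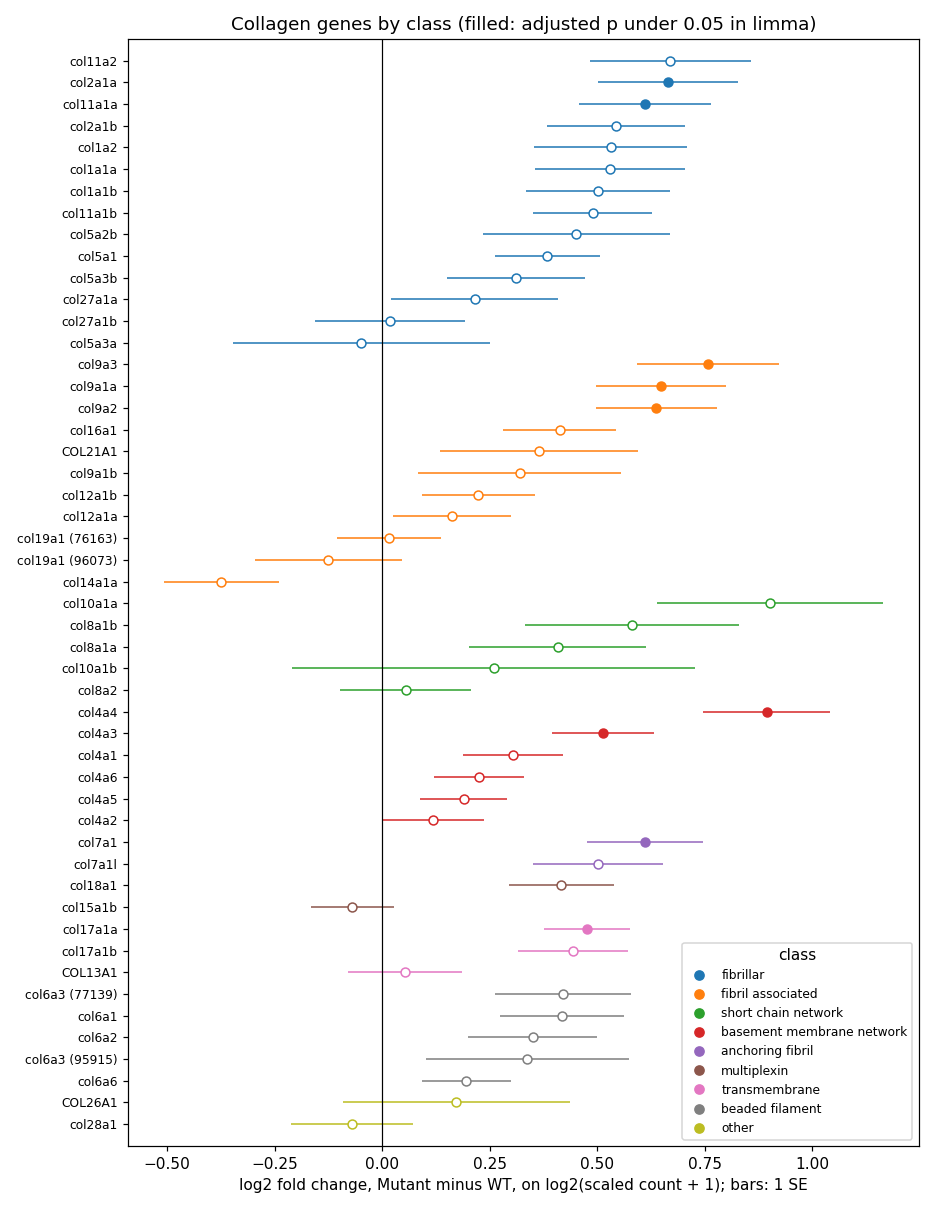
Points give the log2 fold change of each of 50 collagen genes between libraries labelled Mutant (n = 3) and WT (n = 2), on the scale of log2(scaled count + 1), with bars of 1 standard error and genes grouped by class. Filled points mark the 9 genes at an adjusted p under 0.05 in limma. Of the points, 45 lie to the right of 0, and col14a1a lies farthest to the left. Numbers in brackets are the last digits of the gene identifiers where 2 rows share a symbol.

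The libraries labelled WT differed between themselves in these genes. The library of column 2 was the lowest of all 5 libraries for 43 of 50 collagen genes (86%), against 30.1% of all genes tested. The library of column 3 was above that of column 2 for 46 of 50 (92%, against 48.6% of all genes). The summed collagen counts of column 3 were 1.41 times those of column 2, and the Mutant mean of this sum was 1.19 times that of column 3. All libraries labelled Mutant were above both labelled WT for 28 collagen genes (56%), against 22.3% of all genes, and below both for 2 genes, col14a1a and col15a1b, against 22.7% of all genes. Those same 28 genes were the ones in which all libraries labelled Mutant were above column 3 alone, which held for 31.1% of all genes. Mutant replicate 1 was the highest of the 5 libraries for 39 collagen genes (78%, against 15.8% of all genes). Among the 14 fibrillar collagens it was the highest for all 14. These include the genes of types II, XI and XXVII, which are counted again below among the cartilage collagens.

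**Figure D3:**
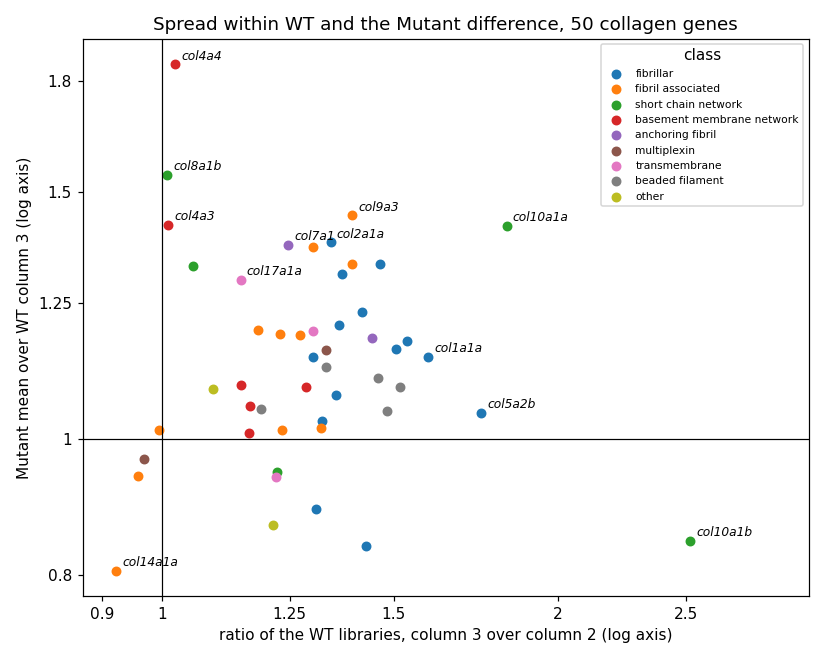
Each point is a collagen gene, placed by the ratio of the WT library of column 3 to that of column 2 (horizontal, log axis) and by the ratio of the Mutant mean to WT column 3 (vertical, log axis). Most points lie to the right of 1. The genes col4a4, col4a3 and col8a1b stand near 1 on the horizontal axis and at 1.85, 1.42 and 1.54 on the vertical axis, and col10a1b is at 2.52 on the horizontal axis.

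Collagens of cartilage held 5 of the 9 genes that rose. These were taken as types II, IX, X, XI and XXVII, 13 genes in all, of which 38.5% were higher, against 3.32% of all genes. Each of the 13 had a positive fold change (median log2 fold change 0.61, against 0.35 for the other 37 collagen genes). Their summed scaled counts were 55801 and 78570 with the WT label against 124535, 101451 and 88983 with the Mutant label. The groups did not overlap, but the sum of WT column 3 was 1.41 times that of column 2, and the Mutant mean 1.34 times that of column 3. Mutant replicate 1 was the highest library for every gene of this group, and Mutant replicate 3 the lowest of its own group for 12 of the 13. Leaving out WT column 2, the log2 fold changes of the 5 genes that rose lay between 0.38 (col11a1a) and 0.52 (col9a3). With all libraries they lay between 0.61 and 0.76 for the same 2 genes.

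Type II collagen is the main fibril of cartilage. Scaled counts of col2a1a (ENSDARG00000069093) were 18778 and 25210.0 with the WT label against 41758, 32914 and 29854 with the Mutant label. All libraries labelled Mutant were higher, and the gene rose 1.58-fold (log2 fold change 0.66, SE 0.16, adjusted p = 0.0454). The second gene for this chain, col2a1b (ENSDARG00000011407), was at 6198 and 8798 against 12668, 10197 and 9650.3. Here the groups did not overlap either, but the log2 fold change of 0.54 (SE 0.16) had an adjusted p of 0.0718.

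Type IX collagen decorates the surface of type II fibrils. Of its 4 genes, 3 were higher, against 3.32% of all genes tested. For col9a3 (ENSDARG00000037845), scaled counts were 2047 and 2855 with the WT label against 4777, 4195 and 3403 with the Mutant label, a 1.68-fold rise (log2 fold change 0.76, SE 0.17, adjusted p = 0.0335). For col9a1a (ENSDARG00000073699) they were 2577 and 3593 against 5430.2, 4750 and 4205 (log2 fold change 0.65, SE 0.15, adjusted p = 0.0394). For col9a2 (ENSDARG00000024492) they were 3214 and 4182 against 6601, 5552 and 5065 (log2 fold change 0.64, SE 0.14, adjusted p = 0.0344). In all 3 genes the lowest library labelled Mutant, replicate 3, stood above the higher library labelled WT. Every library labelled Mutant was above both labelled WT for 22.3% of all genes tested. The fourth gene, col9a1b, was at 513 and 607 against 979.6, 710.4 and 486, so that Mutant replicate 3 was the lowest library of all (log2 fold change 0.32, adjusted p = 0.414).

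Type XI collagen lies inside cartilage fibrils and limits their width. Scaled counts of col11a1a (ENSDARG00000026165) were 8840.4 and 12116 with the WT label against 18563, 14963 and 14195 with the Mutant label, and the gene rose 1.52-fold (log2 fold change 0.61, SE 0.15, adjusted p = 0.0476). Its paralogue col11a1b and the partner chain col11a2 were also higher in every library labelled Mutant, as were 22.3% of all genes tested. Neither passed the threshold. For col11a2 (ENSDARG00000012422) the values were 4508 and 6598 against 10749, 8568 and 7102 (log2 fold change 0.67, SE 0.19, adjusted p = 0.0638), and col11a1b had a log2 fold change of 0.49 (adjusted p = 0.0655).

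Type X collagen marks hypertrophic cartilage, and in zebrafish also bone-forming cells. The gene col10a1a (ENSDARG00000054753) had the largest log2 fold change of the 50, at 0.90 (SE 0.26), and did not pass (adjusted p = 0.0697). Its scaled counts were 4626 and 8451 with the WT label against 14783, 12762 and 8444 with the Mutant label. Mutant replicate 3 was thus level with the higher library labelled WT, and the libraries labelled WT differed 1.83-fold. Its log2 fold change was 0.47 when WT column 2 was left out, below that of col4a4 (0.88). Its low paralogue col10a1b ranged from 51.7 to 178 over the libraries with no separation of the groups. Type XXVII collagen, a fibrillar chain of cartilage and notochord, had log2 fold changes of 0.22 for col27a1a and 0.02 for col27a1b, and the latter turned to -0.07 with equal totals.

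Type I collagen, the main fibril of skin and bone, had the most reads of the family. In zebrafish its chains come from col1a1a, col1a1b and col1a2. Scaled counts of col1a1a (ENSDARG00000012405) were 32554 and 51865 with the WT label against 62895, 54854 and 60494 with the Mutant label. Those of col1a1b (ENSDARG00000035809) were 21945 and 33025 against 43371, 35611 and 35867. Those of col1a2 (ENSDARG00000020007) were 16058 and 24659 against 33897, 26300.4 and 26715. In each gene the libraries labelled Mutant were all higher, as for 22.3% of all genes tested. In each, the gap between the libraries labelled WT was larger than that from WT column 3 to the Mutant mean. The log2 fold changes were 0.53 (SE 0.17), 0.50 (SE 0.17) and 0.53 (SE 0.18), with adjusted p-values of 0.0947, 0.0968 and 0.0982. Leaving out WT column 2, they were 0.19, 0.21 and 0.22.

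Type V collagen starts the assembly of type I fibrils. The gene col5a1 reached 0.38 on the log2 scale (SE 0.12, adjusted p = 0.0885), with values of 7623 and 9927 against 12183, 10895 and 11024. The groups did not overlap. The other genes of this type, col5a2b (0.45), col5a3b (0.31) and the low col5a3a (-0.05), had log2 fold changes with adjusted p-values from 0.215 to 0.935, and their groups overlapped.

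Among basement membrane collagens, col4a3 and col4a4 were the genes of type IV that passed the threshold. In mammals, the chains of these genes join that of col4a5 in the filter membrane of the kidney. Scaled counts of col4a4 (ENSDARG00000002831) were 138 and 141 with the WT label against 274, 228 and 280 with the Mutant label. Their means were 139 ± 2.16 (SD, n = 2) where the label is WT and 261 ± 28.3 (SD, n = 3) where it is Mutant. The gene rose 1.87-fold, or 0.89 on the log2 scale (SE 0.15), and had the lowest adjusted p of the family (0.0184). For col4a3 (ENSDARG00000003395) the values were 242 and 245 against 343, 354 and 345, a 1.43-fold rise (log2 fold change 0.51, SE 0.12, adjusted p = 0.0391). The ratio of WT column 3 to WT column 2 was 1.02 for col4a4 and 1.01 for col4a3, and the libraries labelled Mutant were all well above both. Leaving out WT column 2, the log2 fold changes were 0.88 and 0.51, with adjusted p-values of 0.0973 and 0.205.

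The remaining type IV genes moved less. The common chains col4a1 (2071 and 2665 against 2970.4, 2940.4 and 2802) and col4a2 (1332 and 1551 against 1742, 1539 and 1419) had log2 fold changes of 0.31 and 0.12, with adjusted p-values of 0.134 and 0.547. Those of col4a5 and col4a6 were 0.19 and 0.22, with adjusted p-values of 0.259 and 0.20. For col4a1, col4a5 and col4a6 the groups did not overlap, and for col4a2 they did. Of all genes tested, 22.3% had every library labelled Mutant above both labelled WT. In the RefSeq annotation of assembly GRCz12tu the type IV genes are next to each other in pairs, col4a1 with col4a2, col4a3 with col4a4, and col4a5 with col4a6. The genes that rose are thus neighbours.

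**Figure D4:**
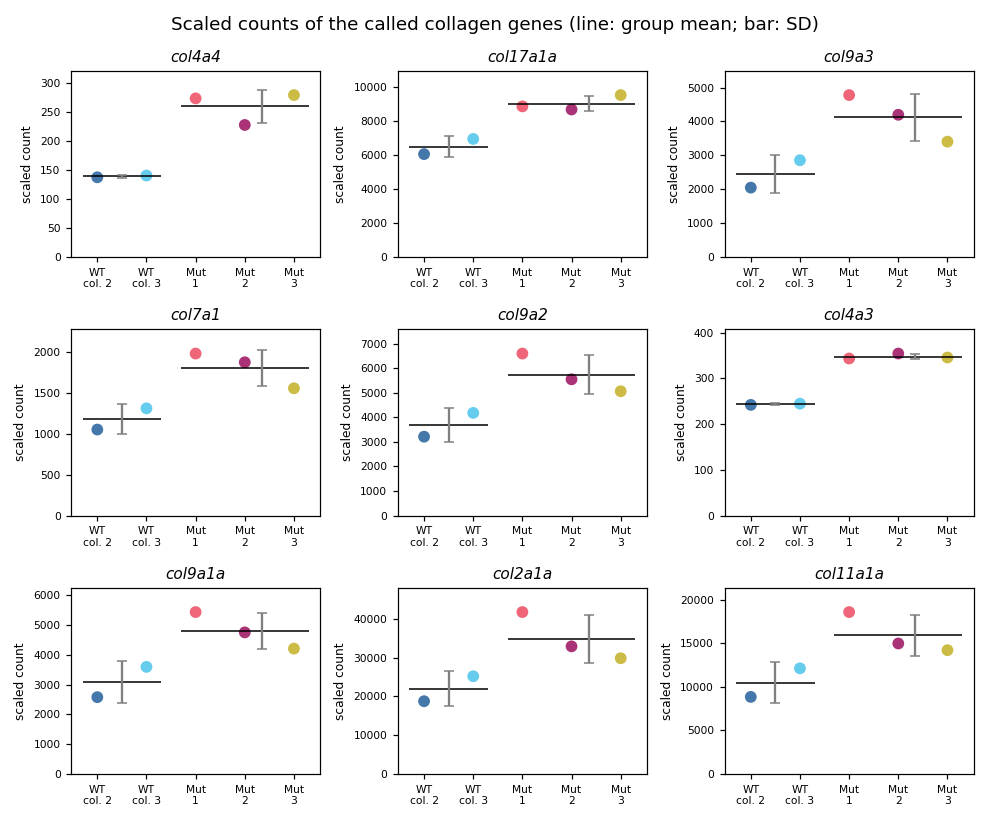
Scaled counts of the 9 collagen genes at an adjusted p under 0.05 in each library (points), with group means (lines) and standard deviations (bars), on axes that start at 0. In every panel the 3 libraries labelled Mutant lie above both labelled WT. The WT points of col4a4 (138 and 141) and col4a3 (242 and 245) nearly coincide, and those of col9a3 (2047 and 2855) are well apart.

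Of 4 collagen genes that fasten the epidermis to the dermis, 2 were higher, against 3.32% of all genes tested. Type VII collagen forms anchoring fibrils under the basement membrane. Scaled counts of col7a1 (ENSDARG00000021720) were 1054 and 1314 with the WT label against 1985, 1878 and 1559.7 with the Mutant label (log2 fold change 0.61, SE 0.13, adjusted p = 0.034). Type XVII collagen is a transmembrane protein of hemidesmosomes in basal epidermal cells. Scaled counts of col17a1a (ENSDARG00000069415) were 6061 and 6954 against 8872, 8690.0 and 9538 (log2 fold change 0.48, SE 0.10, adjusted p = 0.0311). The groups did not overlap in either gene, nor in their relatives col7a1l and col17a1b. Over all genes tested, 22.3% had every library labelled Mutant above both labelled WT. The log2 fold changes of col7a1l and col17a1b, 0.50 and 0.44, had adjusted p-values of 0.0749 and 0.0681.

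Of the proteoglycan collagens of the basement membrane zone, col18a1, whose end part is released as endostatin, was at 3697 and 4921 against 5635, 5600.0 and 5850.0 (log2 fold change 0.42, SE 0.12, adjusted p = 0.0702). In contrast, col15a1b was at 1180.3 and 1143 against 1116, 1072 and 1134 (log2 fold change -0.07, adjusted p = 0.678). The groups did not overlap in either gene, in opposite directions, and the Mutant mean of col15a1b was 0.953 times the WT mean.

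Type VI collagen makes beaded filaments around muscle fibres and other cells, and none of its 5 genes passed. The fold changes of all 5 were positive, with a median log2 fold change of 0.35. For col6a1, scaled counts were 3554 and 5187 with the WT label against 5946, 5872 and 5398 with the Mutant label (log2 fold change 0.42, SE 0.14, adjusted p = 0.106). Leaving out WT column 2, the log2 fold change was 0.14. The log2 fold changes of col6a2 and col6a6 were 0.35 and 0.20, with adjusted p-values of 0.168 and 0.253. The symbol col6a3 occurred for an abundant row (ENSDARG00000077139, log2 fold change 0.42) and a low row (ENSDARG00000095915, 0.34), and whether reads were split between them is not known.

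The remaining fibril-associated and short chain collagens differed in direction. The largest negative log2 fold change of the family, -0.37 (SE 0.13, adjusted p = 0.114), was that of col14a1a (ENSDARG00000005762), a collagen of the surface of type I fibrils. Its values were 399 and 368 with the WT label against 331, 273 and 286 with the Mutant label, so the groups did not overlap. Type XII collagen, a relative on the same fibrils, had log2 fold changes of 0.16 (col12a1a) and 0.22 (col12a1b) with overlapping groups. For col16a1 the log2 fold change was 0.41 (adjusted p = 0.0877) and for COL21A1 0.36 (adjusted p = 0.34). The 2 rows named col19a1 were at 0.02 (ENSDARG00000076163) and -0.13 (ENSDARG00000096073).

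Type VIII collagen belongs to the matrix of vessels and of the cornea. Scaled counts of col8a1b were 76.6 and 77.3 with the WT label against 141, 138 and 79.8 with the Mutant label (log2 fold change 0.58, SE 0.25, adjusted p = 0.169). Mutant replicates 1 and 2 were far above both libraries labelled WT, and replicate 3 was nearly level with them. The same order was seen for col8a1a, at 315 and 332 against 591, 401 and 334, with a log2 fold change of 0.41 (adjusted p = 0.234). The log2 fold changes of col8a2 (0.05), COL13A1 (0.05), COL26A1 (0.17) and col28a1 (-0.07) had adjusted p-values from 0.712 to 0.844. With equal totals the signs of col8a2, COL13A1, col27a1b and the abundant col19a1 row reversed.

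Shares within pairs of related collagen genes varied by a few percentage points between the libraries in most pairs. Such a share depends on the lengths of both transcripts, so only its variation between libraries is described. The share of col1a1b in the sum of col1a1b and col1a1a ranged from 37.2% to 40.8% and that of col4a6 with col4a5 from 38.3% to 40.5%, both with overlapping groups. For col4a4 with col4a3 the share was 36.3% and 36.5% with the WT label against 44.4%, 39.2% and 44.7% with the Mutant label, with no overlap. The share of col9a1b with col9a1a was lowest in Mutant replicate 3 (10.4%) and highest in WT column 2 (16.6%). The groups overlapped here, with 15.3% in Mutant replicate 1 and 14.4% in WT column 3. The small share of col10a1b with col10a1a varied widely for its size, from 0.642% (Mutant replicate 3) to 1.52% (WT column 3), with overlapping groups. Small shifts without overlap were also seen for col2a1b with col2a1a (24.8% and 25.9% against 23.3%, 23.7% and 24.4%) and for col11a1b with col11a1a (30.2% and 30.1% against 27.5%, 28.8% and 29.1%). The share of col6a2 with col6a1 was likewise 39.7% and 40.1% against 38.8%, 38.9% and 38.6%. In all the other pairs compared, the groups overlapped. By their scaled counts, 22.3% of all genes tested had every library labelled Mutant above both labelled WT, and 22.7% below both. No such figure was computed for shares within pairs of other genes. The shares were not tested.

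**Figure D5:**
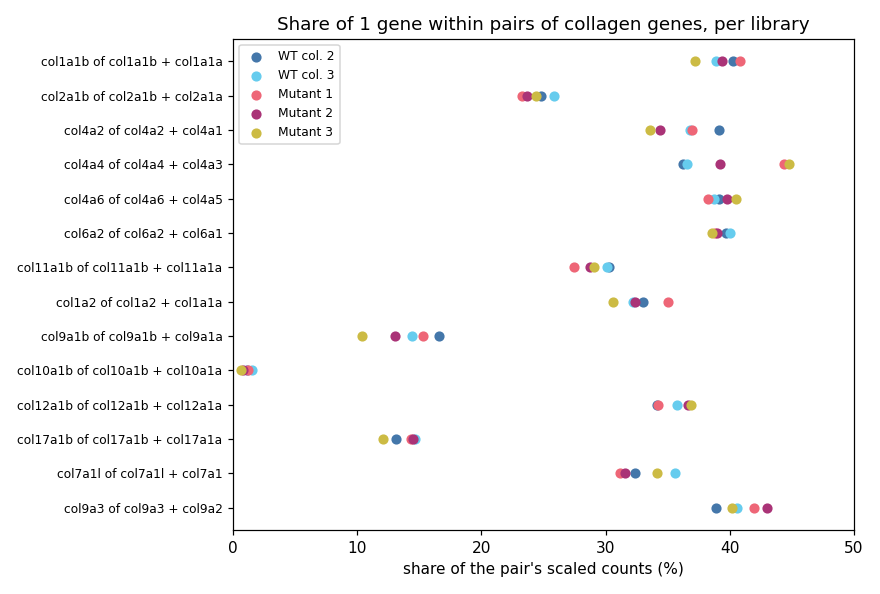
Each row gives the share of 1 gene in the summed scaled counts of a pair of collagen genes (percent, horizontal axis), with a point per library. Points of a row lie close together for col1a1b with col1a1a (37.2% to 40.8%), and the libraries labelled Mutant lie to the right of those labelled WT for col4a4 with col4a3.

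Genes that make, process or bind collagens were counted in 8 lists of 186 genes, of which 183 were tested. At an adjusted p under 0.05, 23 were higher (12.6%, against the 3.32% of all genes) and 2 were lower (against 2.68% of all genes) where the label is Mutant. Leaving out WT column 2, none passed in limma, and 35 had an unadjusted p under 0.05. With all libraries 75 had, against 26.7% of all genes. The share of all genes was not computed for the fit without WT column 2, so the 35 cannot be set against it.

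Of 28 genes of hydroxylation, folding and secretion, 2 were higher and none lower, against 3.32% and 2.68% of all genes. Their median log2 fold change was 0.23. The largest log2 fold change among these lists was that of p4hb, the protein disulfide isomerase that is also the beta subunit of prolyl 4-hydroxylase. Its scaled counts were 2955 and 4135 with the WT label against 6587, 8473 and 6668 with the Mutant label (log2 fold change 1.04, SE 0.16, adjusted p = 0.0143), a 2.04-fold rise. The lysyl hydroxylase plod1a was at 426 and 549 against 747, 742 and 748 (log2 fold change 0.62, adjusted p = 0.0285). For the collagen chaperones serpinh1a and serpinh1b, named after their values were seen, the log2 fold changes were 0.52 and 0.48, with adjusted p-values of 0.0663 and 0.403.

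Of 22 genes of processing and cross-linking, 6 were higher and none lower (median 0.45), against 3.32% and 2.68% of all genes. The lysyl oxidase relatives loxl5b (1.04), loxl2b (0.68) and loxl2a (0.60), the transglutaminase tgm2a (0.72), the collagen-binding protein sparc (0.57) and the procollagen protease enhancer pcolcea (0.54) rose by these log2 fold changes, with adjusted p-values from 0.0215 to 0.0394. The gene loxl5b was low, at 30.1 and 29.6 with the WT label against 74.2, 62.4 and 52.5 with the Mutant label, and was above both WT values in each. Of 17 genes of degradation, 3 were higher and none lower (median 0.21), against the same shares of all genes. These were the gelatinase mmp2 (0.49), the serine protease fap (0.56) and the collagen-cleaving cathepsin ctsk (0.47).

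Among 33 small leucine-rich and other fibril-associated proteins, 7 of 31 tested were higher and none lower (median 0.31). Of all genes, 3.32% were higher and 2.68% lower. The largest rises of the 7 were those of the periostin genes postnb and postna (log2 fold changes 0.81 and 0.70), the tenascin gene tnxba (0.72) and the proteoglycan genes epyc (0.68) and lum (0.66). The genes fmoda (0.46) and tnw (0.43) were the others. Of 31 cartilage and bone genes, 4 were higher and none lower (median 0.26), against the same shares of all genes. The 4 were the cartilage matrix genes matn1 (0.79) and ucmab (0.60), epyc again, and matn4 (0.46). Of the 31, fold changes were positive for 22 and negative for 9. The negative ones were those of sox5, sox6, sox9a, sox9b, runx2a, runx2b, ihhb and both rows named ihha. The largest in size was that of sox5 (log2 fold change -0.245, adjusted p = 0.145 in limma). In sox5 every library labelled Mutant was below both labelled WT, as for 22.7% of all genes. Scaled counts of matn1 were 3431 and 4945 with the WT label against 8712, 7008 and 5944 with the Mutant label, the same order of libraries as in col2a1a.

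The partners of type IV collagen moved little, with 1 of 19 tested genes higher, the laminin gene lamb4 (log2 fold change 0.36, adjusted p = 0.0482), and none lower (median 0.10). Of all genes, 3.32% were higher and 2.68% lower. Of 14 collagen receptor genes, none passed in limma in either direction and 5 had an unadjusted p under 0.05, as did 26.7% of all genes. The largest change was that of the low integrin gene itga2.1, at 29.3 and 26.5 against 14.8, 10.8 and 15.2 (0.488-fold, adjusted p = 0.0861). Of 22 genes of TGF-beta signalling, the matrix gene tgfbi was higher (0.53), and the receptor gene tgfbr1b (-0.73) and the inhibitor smad7 (-0.59) were lower. Scaled counts of tgfbr1b were 316 and 275 with the WT label against 198, 152 and 185 with the Mutant label, with adjusted p = 0.0324.

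Markers of tissues that make collagen, and of tissues that do not, also differed between the groups, and their part in the collagen differences was not tested. Over all genes tested, 3.32% were higher and 2.68% lower. Of 8 epidermis markers, listed as basal epidermis, 5 were higher and all 8 had positive fold changes. Their summed scaled counts were 244047 and 273333 with the WT label against 390397, 393230 and 395688 with the Mutant label. Of these sums, krt4, which was not among the 5, held 93060 and 100283 against 124594, 128858 and 147283. Leaving out WT column 2, the log2 fold changes of the 5 were 0.42 (tp63), 0.56 (krt5), 0.80 (itgb4), 0.72 (krtt1c19e) and 0.39 (lamb4). With all libraries they were 0.45, 0.67, 0.76, 0.84 and 0.36. Whether each marker is confined to the basal layer was not tested. Of 10 chondrocyte markers, all of them also in the cartilage and bone list, 3 were higher and 9 had positive fold changes. The log2 fold change of sox9a was negative (-0.16). The sums of the 10 markers, 11139 and 15310 against 22497, 19315 and 17185, had the order of the cartilage collagens. Leaving out WT column 2, the log2 fold changes of the 3 higher ones were 0.53 (matn1), 0.53 (epyc) and 0.42 (ucmab). With all libraries they were 0.79, 0.68 and 0.60. Of 9 fibroblast or mesenchyme markers 2 were higher and all 9 positive, and the sums were 8219 and 9593 against 11320, 11338 and 11002. The 2 were lum and fap, both already counted in the partner lists. Higher markers numbered 0 of 6 for osteoblasts, 1 of 5 for notochord, 1 of 4 tested for tendon, 1 of 4 for fin rays, 2 of 5 for liver, 0 of 7 for skeletal muscle and 0 of 6 for exocrine pancreas, with none lower in these lists. The notochord marker was epyc and the tendon marker tnxba. Like lamb4 of the epidermis list, they were already counted in the partner lists. Unadjusted limma p-values under 0.05, in either direction, were reached by 2 of the osteoblast, 5 of the muscle and 0 of the pancreas markers. Over all genes tested, 26.7% reached this. So did 7 of the epidermis, 7 of the chondrocyte, 5 of the fibroblast, 4 of the liver and 4 of the fin ray markers. In the other lists, 2 notochord, 2 tendon, 6 lens and retina and 3 brain markers did. For all 7 muscle markers every library labelled Mutant was above both labelled WT, as for 22.3% of all genes tested. Their median log2 fold change was 0.36, with sums of 761025 and 796564 against 988189, 972848 and 897984. The liver sums were 98831 and 136048 against 182384, 206692 and 172294. Of 6 lens and retina markers 3 were lower, and their sums of 95670 and 98223 were above the 69324, 62579 and 74908 of the libraries labelled Mutant. Of 6 brain markers 1 was lower. No marker was at 0 in any library, and the lowest value was 5.05, in the tendon list.

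The ceramide transfer rows that share the symbol were measured as well. For col4a3bpa, scaled counts were 497 and 579 with the WT label against 570, 683 and 559 with the Mutant label, and for col4a3bpb 858 and 659 against 668, 647 and 678. Their log2 fold changes were 0.17 and -0.18, with adjusted p-values of 0.448 and 0.396. Another 4 rows have other symbols in the table but collagen names in a table of gene names. Of these, the row with the name col28a2b (FO704809.1) was higher (137 and 159 against 223, 218 and 277, log2 fold change 0.69, adjusted p = 0.0391). Those with the names col7a1l, col28a2a and col24a1 had log2 fold changes of 0.54, 0.16 and -0.09, with adjusted p-values from 0.145 to 0.786.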

How the data were processed

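Poly(A) RNA of 5 pools of 10 larvae was sequenced as stranded paired-end libraries. The authors aligned reads to danRer7 with STAR, counted them per gene with HTSeq 0.5.3 on an Ensembl annotation and scaled them with DESeq. Each deposited value is a signal, made of the reads of a gene over the size factor of the library, plus 1, which was subtracted here. After this, 100% of the values of each column were whole multiples of a single step to within 0.01 of a read, and the recovered read totals are given as the depth. Whether counting used the strand is not given in the sources used here. Columns of the libraries labelled WT could not be matched to single titles and entered by group. Of their numbers, 3 occurs in no title of this group, and 2 occurs only in another form.

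A pseudocount of 1 was added before taking log2. Testing was two-sided by limma 3.58.1 under R 4.3.3, using its intensity trend, with both groups in 1 fit without covariates, over all genes with a mean of at least 10 (1547 left out). Adjustment followed Benjamini and Hochberg over all genes tested. A fold change on this scale understates the change of low genes. A gene was taken as higher or lower at an adjusted p under 0.05. Nothing states that pools were separate clutches, so p-values measure the spread between these libraries. The fit was tested on simulated data with changes larger than that of any collagen gene. The simulation held no shared difference between the libraries labelled WT, so it does not cover the collagen results.

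The collagen genes, their classes by type number, the 8 partner and 12 marker lists and the rule for named genes were chosen with earlier results of these data known. Named genes were collagens at an adjusted p under 0.05, the 12 largest changes, the 3 most abundant, 12 preset collagens and, in each partner list, the genes past the threshold or else the largest change. Other collagens were named to account for every member. The alternatives were pseudocounts of 0.5 and 8, no limit on low genes and a limit of 50, equal totals, quantile normalization, leaving out each library and, added later, a block by column number.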

Additional observations from a re-analysis of the deposited data

How the results depend on the processing

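The count of collagen genes higher in the libraries labelled Mutant was 9, and was 9 with either other pseudocount, with no limit on low genes and with a limit of 50. Under these settings from 3.04% to 3.8% of all genes were higher. The collagen count was 6 with equal totals, where 481 genes of the table were higher and 1103 lower against 674 and 544 with the deposited scaling. It was 5 with quantile normalization, where 596 genes of the table were higher. With a library left out it ranged from 0 (without WT column 2) to 25 (without WT column 3), and was 1, 1 and 10 without Mutant replicates 1, 2 and 3. Without Mutant replicates 1, 2 and 3, the share of all genes that were higher was 1.18%, 0.236% and 3.26%. No collagen gene was lower at an adjusted p under 0.05 in limma under any alternative. The median log2 fold change of the collagen genes was 0.40, from 0.31 to 0.41 under other settings, and from 0.17 to 0.57 with a library left out, the extremes again without WT column 2 and column 3. A fit with 1 library labelled WT assumes that it varies like the others. The planned edgeR and DESeq2 alternatives were not run, because the unit check of the table did not accept the recovered reads as counts. Numbers 2 and 3 head a column in each group, but no source says that they mark pairs, and the differences between columns 3 and 2 of the groups had a correlation of -0.16 over genes. A replicate block by these numbers, chosen after seeing the data, gave 3 higher collagen genes, 2 of them among the 9, and a median of 0.33. With this block 523 genes of the table were higher. In the block fit Mutant replicate 1 has no partner and adds nothing to the contrast. The cause of these differences was not tested.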
